A study of Homo sapiens with 6 samples.

Results

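The minor arms are the less counted of the 2 mature miRNAs that one hairpin yields. In the count tables of exosomal small RNA, 95 pairs of names differed only in the ending -5p or -3p, among 503 mature miRNAs listed. The arm with fewer counts summed over all 6 libraries was taken as minor. Both arms had equal sums in 7 pairs (miR-339, miR-145, miR-411, miR-154, miR-1225, miR-3940 and miR-29c), and the pairs of miR-21, miR-151a and miR-28 were set aside, which left 85 pairs. The minor arms were thus chosen by their counts in these same libraries, so a minor-arm share below 50% over all libraries describes the choice and is not a result.

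The exosomes came from MDA-MB-231, an established human breast carcinoma line of the triple-negative, mesenchymal-like kind. The cells were stable clones with shMCU, a short hairpin RNA against MCU, through whose pore calcium enters mitochondria, or stable clones with the control hairpin shNC. There were 3 shMCU and 3 shNC libraries. Both kinds of cell were grown for 48 hours in DMEM with 10% serum freed of exosomes, and vesicles were enriched with PEG6000 and by ultracentrifugation, with no other treatment. How many clones were used is not stated, nor is the origin of replicates in separate dishes. The p-values therefore reflect variation among libraries that may be technical alone.

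A miRNA precursor is cut by Drosha and then Dicer into a short duplex. One strand, the guide, is held by an Argonaute protein and directs it to messenger RNAs through its seed, bases 2 to 8, while the other, the passenger or star strand, is usually discarded. Strand choice is known to favour the arm whose 5′ end is less firmly paired, and Argonaute binds a 5′ uridine well. In some hairpins both arms are retained, and the arm ratio can differ between tissues.

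Library totals ran from 12859 to 14692 counts in shMCU and from 11563 to 47863 in shNC libraries. Thus 3 counts, the limit that a count of 0 allows, were worth 62.7 to 259 CPM over the 6 libraries. CPM is a count over its library total times a fixed factor, with no further scaling. The deepest, shNC replicate 1, held 38.8% of the counts of the 85 pairs and so weighed most in deciding which arm was minor. The list of miRNAs of liver, blood, epithelium, muscle and neurons had a listed arm for 20 of 20 hairpins, 23 arms in all. It took 2.99%, 4.27% and 10.9% of counts in shMCU replicates 1, 2 and 3, against 2.84%, 1.86% and 2.23% in shNC replicates 1, 2 and 3. Most counts of the list were miR-122-5p of liver, with 3796 over all libraries, ahead of miR-128-3p with 272. Of the 23 arms, 11 had 5 counts or fewer over all libraries, among them those of miR-141, miR-429 and miR-223, while miR-122-5p alone held 10.4% of shMCU replicate 3. That library stands apart in this way, and values without it are given beside the results it decides. The part of such RNA in the arm shares was not tested. In exosome libraries, fewer vesicles and less RNA per vesicle cannot be told apart.

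The mature sequences below are shown because the results turn on these hairpins. They are RefSeq sequences (GRCh38.p14), written 5′ to 3′ with the seed in capitals; 78 of the 85 minor arms and 82 of the major arms had one. In miR-423, miR-99b and let-7d the minor arm took more than 25% of the pair's counts.
miR-423-3p (minor): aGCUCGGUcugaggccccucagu
miR-423-5p (major): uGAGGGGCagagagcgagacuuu
miR-99b-3p (minor): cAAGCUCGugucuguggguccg
miR-99b-5p (major): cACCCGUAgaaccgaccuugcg
let-7d-3p (minor): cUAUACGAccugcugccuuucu
let-7d-5p (major): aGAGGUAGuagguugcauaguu

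Other let-7 hairpins show the opposite extreme. The major arms of let-7d, let-7a and let-7i share the let-7 seed GAGGUAG, whereas their minor arms carry 3 different seeds.
let-7a-3p (minor): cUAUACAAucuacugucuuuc
let-7a-5p (major): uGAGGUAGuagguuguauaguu
let-7i-3p (minor): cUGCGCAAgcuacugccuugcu
let-7i-5p (major): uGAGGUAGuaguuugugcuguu

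In the related hairpins of miR-30a and miR-30e both arms keep their seeds, and in miR-27a and miR-27b the 3p arms share a seed and the 5p arms do not.
miR-30a-3p (minor): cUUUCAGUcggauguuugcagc
miR-30a-5p (major): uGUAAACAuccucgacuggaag
miR-30e-3p (minor): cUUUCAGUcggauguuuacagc
miR-30e-5p (major): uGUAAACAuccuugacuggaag
miR-27a-5p (minor): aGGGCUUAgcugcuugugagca
miR-27a-3p (major): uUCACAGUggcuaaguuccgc
miR-27b-5p (minor): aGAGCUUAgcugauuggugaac
miR-27b-3p (major): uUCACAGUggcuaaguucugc

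In miR-106b and miR-15b the less counted 5p arm begins with u and the 3p arm with c, and in miR-361 both arms begin with u.
miR-106b-5p (minor): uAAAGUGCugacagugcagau
miR-106b-3p (major): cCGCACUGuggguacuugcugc
miR-15b-5p (minor): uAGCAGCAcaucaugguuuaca
miR-15b-3p (major): cGAAUCAUuauuugcugcucua
miR-361-5p (minor): uUAUCAGAaucuccagggguac
miR-361-3p (major): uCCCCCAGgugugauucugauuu

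Minor arms were unevenly spread over the hairpins. The 85 of them held 1778 counts, of which miR-423-3p alone had 936 and the 6 best counted arms 74.4%: miR-423-3p, miR-99b-3p, miR-30a-3p, let-7d-3p, miR-221-5p and miR-27a-5p. At the other end 42 minor arms had at most 2 counts over all libraries, and 23 had a single count. The minor arm was the 3p arm in 42 pairs and the 5p arm in 43. Of the 52 pairs with at least 50 counts over both arms, called well counted here, 20 had a minor-arm share under 1%, 16 between 1% and 5%, 8 between 5% and 20%, and 8 at 20% or more. The median of these shares was 1.93%, the lowest 0.0235% in let-7i and the highest 45.5% in miR-423. Closest to equal arms over all 85 pairs was miR-335, with 8 of 17 counts on its minor arm, and just outside the choice stood miR-339, a tie of 16 counts each.

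**Figure D1:**
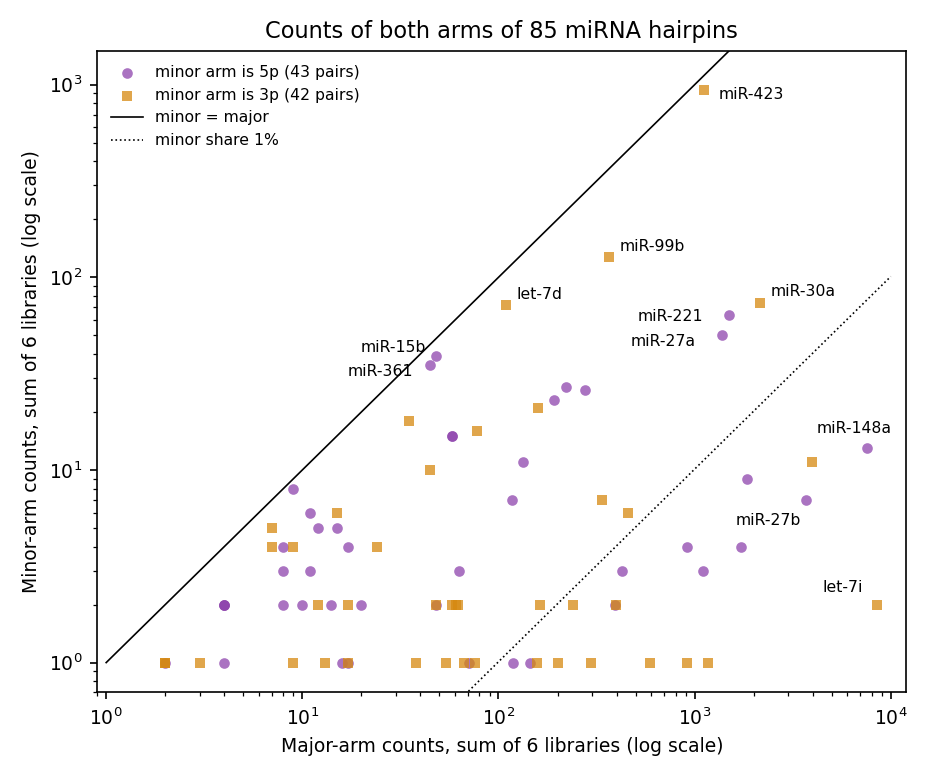
Counts of the minor arm (vertical, log scale) against the major arm (horizontal, log scale) of each of the 85 pairs, summed over 6 libraries, with purple circles for the 43 pairs whose 5p arm is minor and orange squares for the 42 whose 3p arm is. The solid line marks equal arms and the dotted line a minor-arm share of 1%; miR-423 lies next to the solid line at 45.5% and let-7i far under the dotted one at 0.0235%.

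The sequences differed between the arms in features that the counts did not use. In 77 pairs with both sequences, 15 minor arms (19.5%) and 44 major arms (57.1%) began with U, against 39.6% of the 1444 arms of all annotated pairs in the RefSeq table. In 35 pairs the major arm alone began with U, and in 6 pairs the minor arm alone did. Among the first 4 bases, minor arms held on average 1.82 ± 0.956 (SD over 77 arms) and major arms 2.36 ± 0.902 A or U bases. The minor arm had fewer of them in 41 pairs, as many in 21 and more in 15.

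Pairs with a rare and with a well-retained minor arm are given apart. Among well-counted pairs with a minor-arm share under 5%, 5 of 32 minor arms and 22 of 32 major arms began with U, and the first 4 bases held 1.88 ± 0.942 A or U in minor and 2.53 ± 0.718 in major arms. Among those at 5% or more, 4 of 14 minor and 7 of 14 major arms began with U, and the minor arms held 2.29 ± 0.994 A or U against 1.86 ± 0.949 in major arms. These are descriptions of the hairpins counted here and were not tested, since related hairpins share sequence.

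Minor arms made up a small part of pair counts in both groups, with values that overlapped. Pooled over the 85 pairs, the minor-arm share was 4.62% (95% Wilson interval 4.06 to 5.26), 3.33% (2.90 to 3.83) and 2.17% (1.81 to 2.59) in shMCU replicates 1, 2 and 3. It was 4.43% (4.14 to 4.74), 3.69% (3.19 to 4.27) and 3.69% (3.29 to 4.14) in shNC replicates 1, 2 and 3. The shMCU libraries held both the highest and the lowest value, so the groups overlapped. The means were 3.37% ± 1.23 (SD, n = 3) in shMCU and 3.94% ± 0.426 in shNC, a difference of -0.56 percentage points that is smaller than the SD among shMCU libraries, and 0.0392 without shMCU replicate 3. The pooled share is a score over chosen members and was given no test. Wilson intervals and limits from a count of 0 cover counting error only, since PCR copies were not told apart.

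One hairpin carried much of this. Of all minor-arm counts, miR-423-3p gave 57.5%, 51.3% and 33.1% in shMCU replicates 1, 2 and 3, and 57.0%, 49.7% and 47.5% in shNC replicates 1, 2 and 3. Without miR-423, the pooled share was 2.07%, 1.69% and 1.49% in shMCU and 2.02%, 1.91% and 2.0% in shNC libraries. The means were then 1.75% ± 0.296 and 1.98% ± 0.0566 (SD, n = 3), the groups still overlapped through shMCU replicate 1, and the difference was -0.23 percentage points, or -0.095 without shMCU replicate 3. Of the whole library, minor arms took 1.30% ± 0.388 in shMCU and 1.53% ± 0.115 in shNC (SD, n = 3), a difference of -0.23 percentage points that was -0.043 without shMCU replicate 3.

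**Figure D2:**
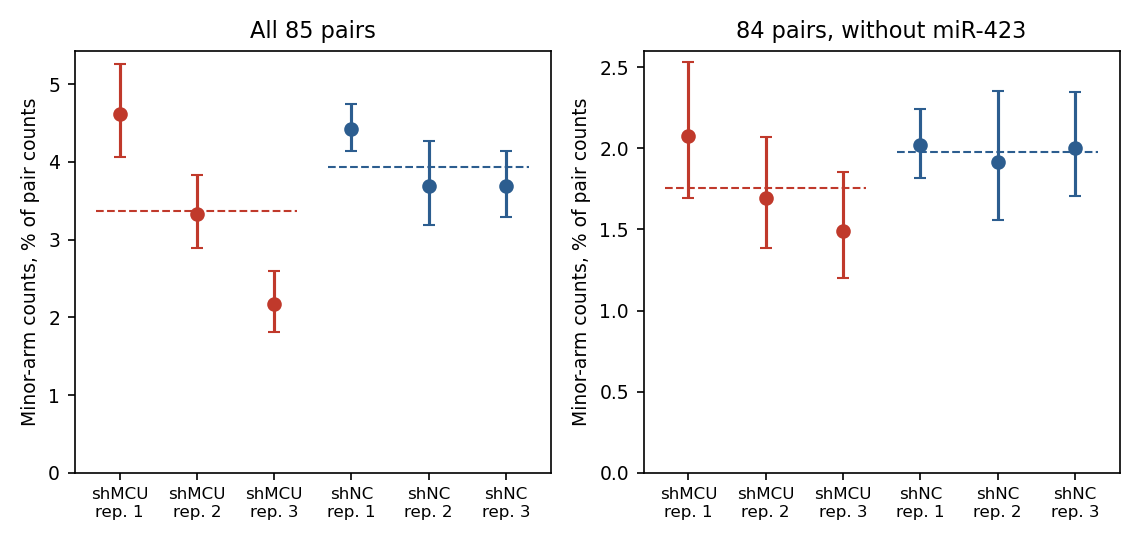
Minor-arm counts as a percentage of pair counts (vertical, from 0, with a different scale in each panel) in each shMCU (red) and shNC (blue) library, for all 85 pairs (left) and for 84 pairs without miR-423 (right). Points carry 95% Wilson intervals and dashed lines are group means; shMCU replicate 3 is lowest in both panels, at 2.17% and 1.49%, and shMCU replicate 1 highest, at 4.62% and 2.07%.

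The best counted minor arm was miR-423-3p. Its hairpin, MIR423 (chr17:30117079-30117172, plus strand, GRCh38), overlaps an exon of NSRP1, which encodes a splicing regulator. It is known as a hairpin that retains both arms. There were 126 of 254, 97 of 239 and 39 of 146 pair counts on the 3p arm in shMCU replicates 1, 2 and 3, shares of 49.6%, 40.6% and 26.7%. In shNC replicates 1, 2 and 3 there were 452 of 1023, 87 of 146 and 135 of 247, shares of 44.2%, 59.6% and 54.7%. The arm called minor over all libraries was thus the better counted one in shNC replicates 2 and 3, and shMCU replicate 1 lay above shNC replicate 1. The group means were 39.0% ± 11.5 in shMCU and 52.8% ± 7.87 in shNC (SD, n = 3).

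The difference in arm share of miR-423 did not pass the test. Arm shares were tested for each pair with edgeR's quasi-likelihood test on both arms of every library, with the library as a block, and the effect is an odds ratio, the ratio of minor to major counts in shMCU over that in shNC. For miR-423 the log2 odds ratio was -0.77 ± 0.44 (SE), an odds ratio of 0.587 with a 95% interval from 0.318 to 1.08 (unadjusted p = 0.087, adjusted p = 0.46 by edgeR's quasi-likelihood test). Leaving out shMCU replicate 3 brought the log2 odds ratio to -0.40, and leaving out shMCU replicate 1 to -1.09. In the fit of single miRNAs, miR-423-3p had a fold of 0.915 (95% interval 0.555 to 1.51) and miR-423-5p of 1.42, neither past the test (edgeR quasi-likelihood, adjusted p = 0.92 and 0.70).

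The next in counts was miR-99b-3p. Its major arm belongs to the miR-99/100 family, whose targets include mTOR, and MIR99B (chr19:51692612-51692681, plus strand, GRCh38) lies in an intron of SPACA6 with MIR125A downstream. The 3p arm took 12 of 47, 7 of 51 and 13 of 44 pair counts in shMCU replicates 1, 2 and 3, or 25.5%, 13.7% and 29.5%. It took 59 of 246, 9 of 31 and 27 of 76 in shNC replicates 1, 2 and 3, or 24%, 29% and 35.5%. The groups overlapped, and the log2 odds ratio was -0.47 ± 0.49 (SE; adjusted p = 0.63 by edgeR's quasi-likelihood test). It was -0.094 without shMCU replicate 2, the lowest shMCU share, and -0.25 without shNC replicate 3, the highest shNC share.

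Among let-7 hairpins, let-7d stood out by the level of its minor arm. MIRLET7D (chr9:94178834-94178920, plus strand, GRCh38) lies in an intron of the long noncoding gene AL158152.2, which also holds MIRLET7A1. The share of let-7d-3p was 40.0%, 33.3% and 63.6% in shMCU replicates 1, 2 and 3, from 25, 15 and 11 pair counts, and 39.0%, 40.0% and 33.3% in shNC replicates 1, 2 and 3, from 100, 15 and 15. Apart from shMCU replicate 3, where 7 of 11 counts were on the 3p arm, all libraries lay between 33.3% and 40.0%. The log2 odds ratio was 0.34 ± 0.60 (SE; adjusted p = 0.70 by edgeR's quasi-likelihood test) and was -0.048 without that library.

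The other let-7 hairpins, whose guides repress growth genes such as RAS and HMGA2, were nearly one-armed. For let-7i, 2 of 8498 pair counts were on the 3p arm, 1 each in shNC replicates 2 and 3, and 0 in shNC replicate 1. The 0 counts in the 3 shMCU libraries allow shares of up to 0.239% to 0.337%, so a difference from the 0.140% and 0.0702% of those shNC libraries was not detectable at this depth. In let-7a the 3p arm had 11 of 3998 counts, 0.275% (95% Wilson interval 0.154 to 0.492), and in let-7b 1 of 1166. The let-7a-5p count pools 3 hairpin genes, of which MIRLET7A1 and MIRLET7A3 give the 3p arm paired here, so its share is a lower value than that of those hairpins alone.

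The minor arms of miR-30a, miR-221 and miR-27a were the best counted of those at a few percent. MIR30A (chr6:71403551-71403621, minus strand, GRCh38) lies in an intron of LINC00472. Its 3p arm took 4.33%, 3.45% and 4.13% of pair counts in shMCU replicates 1, 2 and 3, with 9 counts in each, and 3.81%, 1.79% and 2.76% in shNC replicates 1, 2 and 3, with 29, 7 and 11. The means were 3.97% ± 0.461 and 2.79% ± 1.01 (SD, n = 3), overlapping because shNC replicate 1 exceeded shMCU replicate 2, with a log2 odds ratio of 0.49 ± 0.53 (SE; adjusted p = 0.63 by edgeR's quasi-likelihood test), which was 0.25 without shNC replicate 2 and 0.82 without shNC replicate 1. Its relative miR-30e, from an intron of NFYC (chr1:40754355-40754446, plus strand), had a higher minor share over all libraries, 11.7% (7.76 to 17.2) against 3.31% (2.64 to 4.13) in miR-30a (95% Wilson intervals). Both arms of these hairpins are nearly alike in sequence, so reads could have been assigned between the hairpins, which makes the separate shares uncertain.

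For miR-221, which represses the cell cycle inhibitor CDKN1B through its 3p guide and is typical of basal-like breast cancer, the 5p arm took 2.99%, 4.58% and 9.38% in shMCU replicates 1, 2 and 3. In shNC replicates 1, 2 and 3 it took 3.55%, 6.21% and 3.03%. The highest value rested on 9 of 96 counts in shMCU replicate 3, and the log2 odds ratio of 0.38 became -0.087 without that library. MIR221 (chrX:45746157-45746266, minus strand, GRCh38) lies in an intron of MIR222HG.

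For miR-27a, a guide linked to lipid metabolism and cell growth, the 5p arm took 2.91%, 8.39% and 5.88% in shMCU replicates 1, 2 and 3 and 1.83%, 5.97% and 3.36% in shNC replicates 1, 2 and 3. The groups overlapped, with a log2 odds ratio of 0.87 ± 0.64 (SE; adjusted p = 0.46 by edgeR's quasi-likelihood test). Leaving out a library brought it to between 0.33, without shNC replicate 1, and 1.32, without shMCU replicate 1. Its relative miR-27b had 7 of 3713 counts on the 5p arm, 0.189% (95% Wilson interval 0.0914 to 0.389), against 3.50% (2.66 to 4.58) for miR-27a, although their 3p arms share a seed. MIR27A is at chr19:13836440-13836517 (minus strand) and MIR27B at chr9:95085445-95085541 (plus strand, GRCh38), in an intron of C9orf3. Because the 3p arms are alike, reads could have been assigned between them, which makes the separate shares uncertain.

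In several other hairpins the minor arm held a large part of the pair's counts. In miR-361, from an intron of CHM (chrX:85903636-85903707, minus strand, GRCh38), the 5p arm had 2 of 7, 1 of 6 and 1 of 5 counts in shMCU replicates 1, 2 and 3. In shNC replicates 1, 2 and 3 it had 20 of 39, 3 of 8 and 8 of 15. Every shMCU share, 16.7% to 28.6%, lay below every shNC share, 37.5% to 53.3%, from 4 minor-arm counts in all of shMCU. The log2 odds ratio was -1.71 ± 0.94 (SE; unadjusted p = 0.071, adjusted p = 0.46 by edgeR's quasi-likelihood test).

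In miR-15b, whose 5p arm carries the BCL2-repressing miR-15/16 seed, 39 of 87 counts were on the 5p arm, a share of 44.8% (95% Wilson interval 34.8 to 55.3). The shMCU libraries had only 11, 5 and 4 pair counts and shares from 20% to 72.7%, around the shNC range of 40.9% to 50%. In miR-574 the 3p arm took 2 of 4, 2 of 2 and 2 of 3 counts in shMCU replicates 1, 2 and 3, and 2 of 23, 1 of 4 and 9 of 17 in shNC replicates 1, 2 and 3. With so few shMCU reads the 95% interval of its odds ratio ran from 0.427 to 57.7, and its log2 odds ratio of 2.31 was 1.14 without shNC replicate 1 and 3.75 without shNC replicate 3. For both hairpins the arm with fewer counts in the shMCU libraries alone was the other one.

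Intermediate shares were seen in miR-140, miR-106b and miR-22. For miR-140, a cartilage-rich miRNA from an intron of WWP2 (chr16:69933081-69933180, plus strand, GRCh38), the 5p arm took 16%, 7.14% and 0% in shMCU replicates 1, 2 and 3. In shNC replicates 1, 2 and 3 it took 14.5%, 15.2% and 10.9%; the 0% rests on 40 pair counts in shMCU replicate 3. The 5p arm of miR-106b, which carries the miR-17 seed and lies with miR-25 in an intron of MCM7, had 23 of 214 counts (10.7%). Its shares, 4.76% to 18.2% in shMCU and 7.59% to 20.6% in shNC libraries, overlapped. For miR-22-5p, from an exon of MIR22HG, they were 4.76% to 9.52% in shMCU and 8.33% to 10.9% in shNC libraries, overlapping as well.

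The 3p counts of miR-199a and miR-199b were the same in each of the 6 libraries, and their RefSeq sequences are identical, so the same reads stand under both names. Their 5p arms are listed separately, with 15 counts each. Their minor-arm shares, 20.5% for each over all libraries, therefore have a denominator that mixes the hairpins and are not independent. The log2 odds ratios were 0.37 ± 1.02 (SE) for miR-199a and 1.56 ± 0.97 for miR-199b (adjusted p = 0.80 and 0.46 by edgeR's quasi-likelihood test). That of miR-199a was -0.054 without shNC replicate 1.

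Few counts also stood behind the widest fitted ratios. In miR-125a, a hairpin beside miR-99b whose 5p arm is the lin-4 homologue, the 3p arm had 1 of 7, 2 of 8 and 4 of 4 counts in shMCU replicates 1, 2 and 3 and 1 of 23, 1 of 3 and 1 of 10 in shNC replicates 1, 2 and 3. The shNC replicate 2 share exceeded 2 of the shMCU shares, and the log2 odds ratio was 2.49 ± 1.58 (SE; adjusted p = 0.46 by edgeR's quasi-likelihood test). It was 1.27 without shMCU replicate 3 and 1.57 without shNC replicate 1. In miR-425 the 3p arm had 1 count in all of shMCU and 15 in shNC, of 19 and 75 pair counts, with a log2 odds ratio of -1.92 ± 1.41 (SE) that ran from -4.25 without shMCU replicate 2 to -1.19 without shMCU replicate 1. That of miR-1307-5p, with 11 counts in all, was 0.78 ± 0.95 (SE), and both pairs overlapped between the groups.

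Of the most abundant hairpins with a rare minor arm, miR-148a had the smallest p. Its 3p guide, a repressor of DNMT1, is among the most abundant miRNAs of these libraries, and MIR148A (chr7:25949919-25949986, minus strand, GRCh38) has no host gene on that strand. The 5p arm had 1 count in each shMCU library, of 574, 1107 and 2066 pair counts, and 5 of 1895, 2 of 711 and 3 of 1194 in shNC replicates 1, 2 and 3. The shares were 0.174%, 0.0903% and 0.0484% in shMCU and 0.264%, 0.281% and 0.251% in shNC libraries, without overlap, but from 13 minor-arm counts in all. The log2 odds ratio was -1.65 ± 0.82 (SE; unadjusted p = 0.049, adjusted p = 0.46 by edgeR's quasi-likelihood test), and -1.09 without shMCU replicate 3, whose miR-148a-3p count was the highest. By the same test the unadjusted p was 0.14 with every pair fitted and 0.11 with pairs of at least 200 counts. It was 0.10 with a replicate block, 0.049 without robust estimation and 0.047 with limma on log2 arm ratios. With a library left out, edgeR's unadjusted p for miR-148a ran from 0.047 to 0.27.

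In miR-25, whose 3p guide is known to target MCU, the 5p arm had 9 of 1858 counts, with 2, 0 and 0 in shMCU and 3, 1 and 3 in shNC replicates 1, 2 and 3. In miR-378a, from an intron of PPARGC1B, a regulator of mitochondrial biogenesis, it had 4 of 1735, with 2 counts in shMCU replicate 1 and 2 in shNC replicate 1. At these depths the 0 counts allow miR-25 shares of up to 1.22% and 1.94% in shMCU replicates 2 and 3, above every share observed in an shNC library, where the highest was 1.15%. A difference in these hairpins was not detectable.

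**Figure D3:**
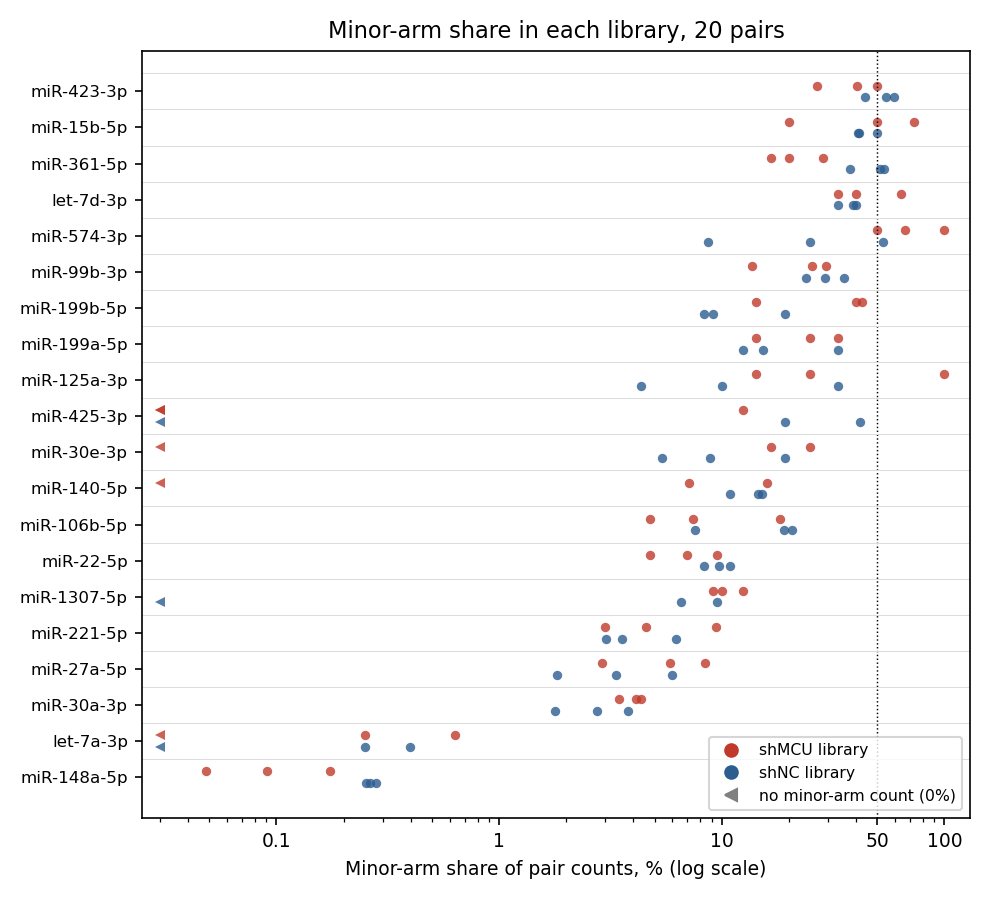
Minor-arm share of pair counts (horizontal, percent on a log scale) in each shMCU (red) and shNC (blue) library for the 20 pairs with at least 50 counts over both arms and 10 on the minor arm, ordered by share over all libraries; left-pointing triangles stand for 0% and the dotted line for equal arms. The groups are separate in miR-148a-5p and miR-361-5p, where shMCU lies below shNC, and overlap in the other 18 pairs.

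Across the pairs that could be fitted, no change in arm share passed the adjusted test. The fit held 21 pairs, 20 of them among the 85, with at least 50 counts over both arms and at least 10 on the minor arm. Both sums ran over all 6 libraries. Of the 20, 0 were called by edgeR (quasi-likelihood, adjusted p threshold 0.05, background 0.0% of the 21). At an unadjusted p under 0.05 there was 1, miR-148a (background 4.76%), and limma on log2 arm ratios gave 2 at that level, miR-148a and miR-574, and 0 after adjustment. The fitted odds of the minor arm were higher in shMCU for 11 of the 20 (background 57.1%) and lower for 9 (background 42.9%), with a median log2 odds ratio of 0.35, beside 0.34 over all 21. Every shMCU share lay below every shNC share in 2 pairs (background 9.52%) and above it in 0 (background 0.0%). The 2 pairs, miR-148a and miR-361, passed the filter on minor-arm counts through shNC libraries alone. They had 10 and 31 minor-arm counts in shNC and 3 and 4 in shMCU libraries. As the filter could be passed through a single group, 2 below against 0 above is not a result on direction. The background is nearly the same set of pairs, so these shares show nothing particular to the members. The upper bound of the 95% interval was 3.19 times the odds ratio at the median, and between 1.85 times in miR-423 and 11.6 times in miR-574.

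**Figure D4:**
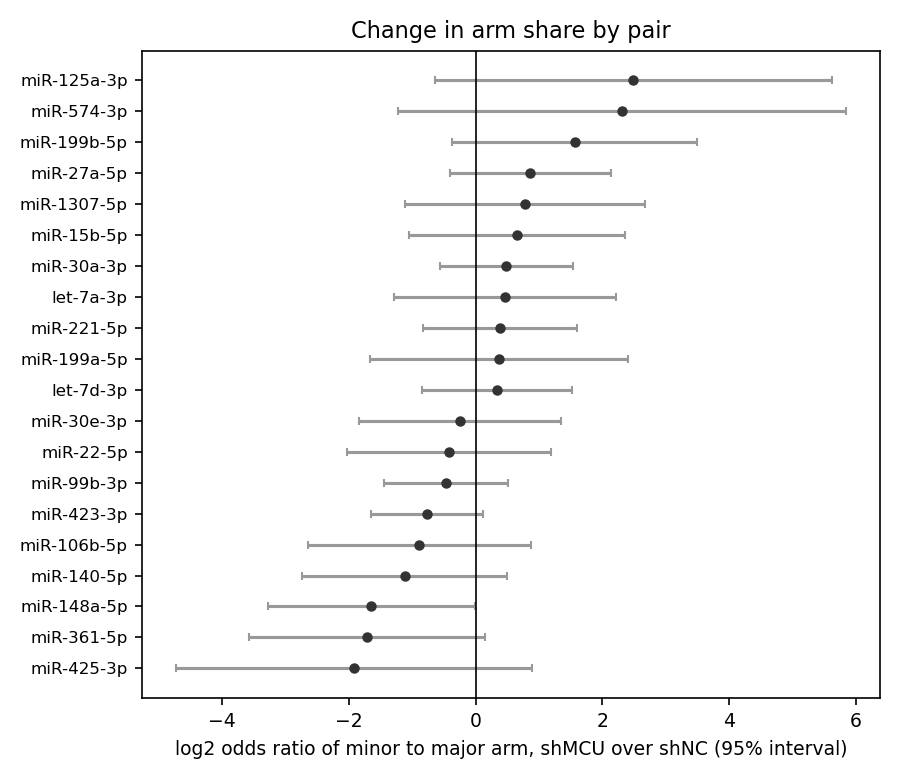
Log2 odds ratio of the minor to the major arm, shMCU over shNC (horizontal), with 95% intervals from edgeR's quasi-likelihood fit, for 20 pairs named by their minor arm. All intervals but that of miR-148a-5p, which ends just under 0, include 0, and the narrowest is that of miR-423-3p.

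As single miRNAs, few minor arms were counted well enough to be tested. Of 79 miRNAs past the filter on low counts, 2 were minor arms of the 85 pairs and 35 were major arms. Neither miR-99b-3p nor miR-423-3p passed (0 of 2, background 0.0% of the 79 in edgeR's quasi-likelihood fit at an adjusted p threshold of 0.05, 3.8% at an unadjusted p under 0.05, where again 0 of the 2 passed; DESeq2 called 0 of the 2 and 1 of the 79, 1.27%, and gave an unadjusted p under 0.05 to 0 of the 2 and 3 of the 79, 3.8%). The level of miR-99b-3p was 928, 476 and 1011 CPM in shMCU replicates 1, 2 and 3 and 1233, 778 and 1358 CPM in shNC replicates 1, 2 and 3, with a fold of 0.812 (95% interval 0.406 to 1.63). That of miR-423-3p was 9745, 6602 and 3033 CPM in shMCU replicates 1, 2 and 3 and 9444, 7524 and 6789 CPM in shNC replicates 1, 2 and 3. Both overlapped between the groups. By CPM, 1.27% of the 79 had every shMCU library above and 10.1% every shMCU library below every shNC library. Scaled by library totals alone, as CPM are, the median log2 fold change of the 79 was -0.24. It was -0.024 in the fit, which scales libraries by TMM. The bearing of scaling on these 2 percentages was not tested. Both minor arms were fitted lower in shMCU, as were 51.9% of the 79, and 0 of the 2 were fitted higher, as were 48.1%. The fitted log2 fold change of miR-423-3p was -0.13, or 0.10 without shMCU replicate 3.

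The number of minor arms detected overlapped between the groups, also once depth was equal. With at least 1 count, 33, 42 and 32 of the 85 were found in shMCU replicates 1, 2 and 3, and 54, 34 and 39 in shNC replicates 1, 2 and 3, the most in the deepest library. Thinned to 11563 counts, the expected numbers were 31.4, 36.6 and 30.0 in shMCU and 29.7, 34.0 and 31.4 in shNC libraries, with means of 32.7 ± 3.47 and 31.7 ± 2.16 (SD, n = 3). With at least 3 counts at that depth they were 9.59, 7.38 and 7.67 in shMCU and 10.1, 13.0 and 12.5 in shNC libraries. Each shMCU library thus lay below each shNC library, which was not tested. The 85 were chosen by counts in these same libraries, and shNC replicate 1 alone held 38.8% of the pair counts. No matching number was made for the major arms or for all miRNAs, so the separation cannot be tied to minor arms.

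Minor-arm shares ranged widely between and within families. The list of 12 hairpins known to give both arms was chosen with earlier results known, so the presence of all 12 among the 85 is not a result. Its members differed, with a minor-arm share over all libraries of 0.633% in miR-532, 1.22% in miR-17 and 45.5% in miR-423. The pooled minor-arm share of this list was 31.7% (295 of 930 counts) in shMCU and 37.0% (768 of 2076) in shNC, most of it miR-423. By library it was 38.8%, 32.5% and 19.9% in shMCU replicates 1, 2 and 3 and 36.1%, 38.6% and 38.9% in shNC replicates 1, 2 and 3, and without shMCU replicate 3 the shMCU share was 35.8% (247 of 689). Of these hairpins, 6 could be fitted, 3 higher and 3 lower in shMCU, 0 called. Those fitted higher include miR-199a and miR-199b, which share their 3p reads and are not independent. These reads also enter the pooled share of the list under both names. The 4 let-7 hairpins had 0.578% in shMCU and 0.643% in shNC, and the 4 of the miR-30 family 3.10% and 2.78%. In the miR-23/27/24 clusters the 4 hairpins had 1.62% in shMCU and 0.776% in shNC, most of it miR-27a-5p. The groups overlapped, with 0.789%, 2.44% and 1.68% in shMCU replicates 1, 2 and 3 and 0.662%, 1.33% and 0.719% in shNC replicates 1, 2 and 3. Without shMCU replicate 2 the shMCU share of these clusters was 1.14%. The 6 of the miR-17/92 clusters, where the oncogenic miR-17 seed is common, had 1.09% and 1.38%. The hairpins of miR-148a and miR-148b had 0.103% in shMCU and 0.271% in shNC. The pair of miR-221 and miR-222 had 4.10% in shMCU and 3.06% in shNC, and that of miR-99b and miR-125a 24.2% and 25.2%, where miR-125a-3p took 4 of 4 counts in shMCU replicate 3. With each library left out in turn, the difference changed sign in 9 of the 13 lists and kept it in 4, those of miR-23/27/24, of miR-148, of the pair of miR-221 and miR-222, and of hairpins known to give both arms; for the pair of miR-221 and miR-222 the shMCU share was 3.33% without shMCU replicate 3, and for miR-148 it was 0.170%. No fitted member of any list passed the adjusted test.

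The remaining lists had few minor-arm counts. Among miR-15b, miR-424 and miR-503, 3 hairpins of the miR-15/16 group, the minor arms had 23.0% in shMCU and 24.2% in shNC, from 14 of 61 and 30 of 124 pair counts. Of the 14 minor-arm counts of shMCU libraries 11 were in replicate 1, without which the shMCU share was 7.69% (3 of 39). Over all libraries miR-15b-5p had 39 and miR-424-5p 4 of these minor-arm counts. The miR-181 hairpins had 1 minor-arm count of 152 in shMCU (0.658%) and 7 of 488 in shNC (1.43%), 6 of the 7 in shNC replicate 1, the deepest library; without it the shNC share was 0.568%. Of these counts miR-181a-3p gave 1 in shMCU and 6 in shNC, and miR-181b-3p had 1 count, in shNC replicate 1. Each 5p count of miR-181a and miR-181b pools 2 hairpin genes, while the 3p arms paired here come from MIR181A1 and MIR181B1 alone. The miR-181 shares are therefore lower values than those of these hairpins alone. For miR-29a-5p there were 3 counts of 1107, for miR-10a-3p 6 of 466, for miR-222-5p 3 of 427 and for miR-148b-5p 2 of 393. Of the markers of other cells, miR-9, miR-200a and miR-142 were among the 85 pairs, with 3 minor-arm counts in shMCU and 6 in shNC; over all libraries miR-142-3p had 4 and miR-200a-5p 3.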

How the data were processed

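Small RNA libraries of exosomes (3 shMCU, 3 shNC, grouped by title) were made with an adapter-ligation kit without stated molecular identifiers, per the labels' protocols. The deposited values are counts per mature miRNA, not normalized by the authors, as their whole values and unequal totals show. The submitters' processing notes name Bowtie and the build hg19. Its version, the mismatches allowed, the handling of multi-mapping reads, the counter and the miRNA release: not given in the sources used here. Coordinates are GRCh38 (GENCODE), not converted.

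Members, lists and the naming rule were chosen with earlier results of these data known. Named pairs are the 10 best counted, the 10 with the most minor-arm counts, the 5 with the highest share, up to 3 per direction by p in each fit, and up to 2 per list; miR-335, miR-339, let-7b, miR-199a, miR-425, miR-1307, miR-503 and miR-9 were added after their values were seen. Outside this rule stand also miR-532 and miR-17, named for the spread within their list. The same holds for miRNAs named for shared seeds, among them miR-23a, miR-23b and miR-330.

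Arm shares were fitted with edgeR 4.0.16 (R 4.3.3) on 12 columns, library + arm + arm by group; single miRNAs with TMM, filterByExpr and group. Both used robust estimation, with p adjusted by Benjamini-Hochberg over all pairs or miRNAs fitted and called under 0.05. Standard errors were derived from p and the t quantile. CPM use library totals. Alternatives included DESeq2 1.42.0 and limma 3.58.1. Both fits were tested on simulated data. Same-numbered libraries did not deviate together, so no pairing was assumed.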

Additional observations from a re-analysis of the deposited data

How the results depend on the processing

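No minor arm and no arm share was called with the settings as reported or under any alternative that was run (DESeq2, other scalings and filters, limma, a replicate block, each library left out). The numbers at an unadjusted p under 0.05 in the arm-share fit, 1 as reported, ran from 0 without shMCU replicate 3 to 4 without shMCU replicate 1. Deviations of same-numbered libraries correlated at 0.16, -0.35 and 0.082 over miRNAs and at 0.092, -0.41 and -0.22 over arm ratios. No pairing by replicate number was thus seen, but 3 libraries per group cannot settle whether same-numbered libraries were prepared together. The replicate block gave 0 calls in both fits, with -0.80 for miR-423 in place of -0.77. The difference in pooled share (shMCU minus shNC, -0.56 points) ran from -1.19 without shMCU replicate 1 to 0.0392 without shMCU replicate 3, and from -0.76 to -0.13 over other choices of members. That in the median share of well-counted pairs (0.14 points) ran from -0.33 to 0.49 with a library left out and was 0.93 with a mean over pairs. That in detected minor arms (1.00 at equal depth) ran from -0.97 to 2.33 and was -6.67 without thinning, where the deepest library counts more, and -3.65 with at least 3 counts, for which the cause was not tested. That in the share of all counts (-0.23 points) ran from -0.43 without shMCU replicate 1 to -0.043 without shMCU replicate 3. Of 233 log2 values of 22 named results under the alternatives, 225 kept their direction and 8, from 7 results, turned with a library left out. Over the libraries left out, the fold change of miR-423-3p ran from -0.46 to 0.10 and the odds ratios ran from -0.65 (without shMCU replicate 2) to 0.86 in let-7a, -0.087 (without shMCU replicate 3) to 0.78 in miR-221, -0.048 (without shMCU replicate 3) to 0.63 in let-7d, -0.92 to 0.83 (without shMCU replicate 1; 0.56 without shNC replicate 1) in miR-30e, -0.054 (without shNC replicate 1) to 0.95 in miR-199a and -0.51 (without shMCU replicate 1) to 1.37 in miR-15b. The choices without miR-423 combined with a left-out library, without miR-199b, and of the whole-library share without miR-423, and the left-out libraries for the lists, were made after seeing the data. Depth limits most pairs: 65 of the 85 minor arms had at most 9 counts.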

Other observations

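Some minor arms share their seed with other miRNAs of the libraries, in a few cases with far better counted ones. Of the 78 minor arms with a sequence, 10 shared bases 2 to 8 with at least 1 other listed miRNA. The seed AAAGUGC of miR-106b-5p, with 23 counts over all libraries, was shared with miR-106a-5p, miR-17-5p, miR-20a-5p and miR-93-5p, which had 1152 counts together. The seed AGCAGCA of miR-15b-5p, with 39 counts, and of miR-424-5p, with 4, was shared with miR-15a-5p and miR-16-5p; the other miRNAs with the seed of miR-15b-5p had 329 counts. The minor arms miR-30a-3p and miR-30e-3p, with 74 and 21 counts, shared the seed UUUCAGU with each other, as did miR-23a-5p and miR-23b-5p (GGGUUCC, 4 and 1 counts), and let-7a-3p and let-7b-3p with let-7f-1-3p (UAUACAA), and miR-330-5p shared one with miR-326, with 5 counts each. These are counts of names and sequences; targeting was not measured.

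Among the 7 pairs set aside as ties, miR-339 had the most counts. Its 3p arm had 2 of 4, 1 of 7 and 0 of 2 pair counts in shMCU replicates 1, 2 and 3, against 9 of 14, 1 of 1 and 3 of 4 in shNC replicates 1, 2 and 3. The pair lies outside the 85 and was not tested, and it was chosen after its values were seen.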
